A study of Mus musculus with 15 samples.

Results

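The small leucine-rich proteoglycans (SLRPs) described here are decorin (Dcn), lumican (Lum), biglycan (Bgn), fibromodulin (Fmod), osteoglycin (Ogn), asporin (Aspn), prolargin (Prelp), osteomodulin (Omd) and podocan (Podn). They were chosen by gene symbol. The 9 genes accounted for 20 of the 65522 transcription units for which transcript level was given as FPKM (fragments scaled to transcript length and to library size), and all 20 shared a locus with another unit. Bgn, Dcn, Ogn, Aspn and Prelp had 2 units each, Lum, Fmod and Podn had 3, and Omd had 1. Each gene is described by its unit with the highest mean FPKM. The units of a gene followed each other closely, with correlations of log2(FPKM + 1) between 0.93 for a pair of Podn units and 0.996 for Aspn over the 15 samples. How fragments were shared between overlapping units is not given in the sources used here, and the libraries did not keep the strand, so the absolute level of a gene is less certain than its differences between samples.

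Poly(A) RNA was sequenced from fibroblasts from female C57BL/6 mouse embryos. Primary populations, each from a separate embryo and taken before passage 5, were WT (from embryo E14.4, E13.8 or E13.1) or CIZ1 null (from embryo E14.2, E13.17 or E13.15). From each, 1 culture-adapted line was grown out by continued passage, so that 3 populations stood in each of these 4 groups. CIZ1 null cells carry a gene trap in Ciz1, a gene for a nuclear matrix protein. The E13.17 cells also carried a transgene for GFP-CIZ1 inducible by doxycycline and were sampled without the drug. Another untreated CIZ1 null sample with the transgene (S13) and 2 samples treated with doxycycline at 5 to 10 µg per ml for 24 h (S14 and S15) complete the 15. The adapted lines are single outgrowths, 1 per embryo, so the p-values below measure the spread between separate embryos' populations and, in adapted cells, between separate outgrowths.

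SLRPs are secreted proteins with a core of leucine-rich repeats, to which one or more glycosaminoglycan chains may be attached. Most bind fibrillar collagens and limit or guide the growth of fibrils, and several also bind growth factors such as TGF-beta or receptors on the cell surface. They are abundant products of fibroblasts in tendon, skin, cartilage and bone. Decorin, biglycan and asporin form the class with chondroitin or dermatan sulfate chains, although asporin usually lacks one. Lumican, fibromodulin, prolargin and osteomodulin form the class related to keratan sulfate, osteoglycin belongs to a further class, and podocan is a more distant member.

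The genes lie in clusters. By GENCODE vM21 annotation of GRCm38, all 9 are protein-coding. Dcn (chr10:97479609-97518143, plus strand) and Lum (chr10:97565128-97572703, plus strand) are neighbours, as are Aspn (chr13:49544443-49567565), Omd (chr13:49582462-49592822) and Ogn (chr13:49608046-49624501), all on the plus strand. Prelp (chr1:133910304-133921414, minus strand) and Fmod (chr1:134037254-134048277, plus strand) form a pair. Bgn (chrX:73483602-73495933, plus strand) and Podn (chr4:108014791-108096445, minus strand) stand alone.

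Read numbers of the single libraries are unknown, but their relative depth was read from the lowest values, with primary WT E14.4 set at 1. It was 1 to 1.64 in primary WT and 1.21 to 1.44 in primary CIZ1 null cells. Adapted WT lines were at 0.620 to 1.19 and adapted CIZ1 null lines at 0.540 to 0.901. S13, S14 and S15 were at 0.483, 1.17 and 0.877. Depth was thus mostly lower in adapted lines, and its part in the SLRP differences and in their spread was not tested. Ciz1 itself was at 18.7 to 25.0 FPKM in WT cells, at 0.0546 to 0.724 in untreated CIZ1 null cells and at 296 and 191 with doxycycline. All 9 fibroblast markers were present at 1 FPKM or more in every primary population. Their summed level was 13999 to 14554 in primary WT cells, 13131 to 13832 in primary CIZ1 null cells, 13388 in S13, and 11843 and 10354 in S14 and S15. The sum was 2785 to 8856 in adapted WT lines and 3957 to 6502 in adapted CIZ1 null lines. The exception among the markers was Thy1, a surface glycoprotein of fibroblasts, at 0.10 in adapted WT E13.8 and 0.234 in adapted CIZ1 null E13.17 but 256 to 901 in the other adapted lines. The summed level of 5 skeletal muscle markers was 12.2 to 34.1 in the 9 primary samples, S13 to S15 included, and 0.0660 to 0.906 in adapted cells. That sum was Des alone, apart from Myog at 0.0429 in primary WT E13.8. The sum of 5 epithelial markers was 17.1 to 81.6 in primary and 0 to 22.6 in adapted cells. Most of it was Krt19, at 15.8 to 78.8 and 0 to 22.6. The sum of 3 tendon markers was 41.1 to 94.5 in primary and 6.92 to 61.4 in adapted cells, but its members did not move alike. Tnmd was at 24.6 to 81.2 in primary and 0 to 0.408 in adapted cells. Mkx was at 1.49 to 11.6 and 6.22 to 47.8, and Scx at 1.28 to 14.5 and 0.387 to 26.8. The part of these shifts in the SLRP differences between primary and adapted cells was not tested.

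In primary cells Bgn was by far the most abundant SLRP transcript. Its level was 1654 FPKM in E14.4, 1539 in E13.1 and 1641 in E13.8 among primary WT cells, while the primary CIZ1 null cells had 1779 in E14.2, 1529.9 in E13.15 and 1271 in E13.17. This is 92.3 to 93.7% and 87.2 to 89.7% of the summed FPKM of the 9 genes. Behind it, Fmod was second in 2 and Aspn in 1 of the 3 primary WT populations, and Aspn was second in all 3 primary CIZ1 null populations. Dcn, the archetype of the family and a binder of collagen and TGF-beta, was at 24.1 to 34.0 FPKM in primary WT and 47.7 to 68.5 in primary CIZ1 null cells. Omd was the lowest in all 6, at 0.0482 to 0.522 FPKM.

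After culture adaptation the shares differed more between lines. Bgn kept the largest share in 5 of 6 adapted lines. In adapted WT E13.1 the share of Bgn, 92.2% of the summed FPKM, stayed close to the 92.6% of its primary population. Fmod was second there at 3.33%, while Dcn went from 24.1 to 0.984 FPKM and Lum from 4.92 to 0. Bgn was 52.2% in adapted WT E14.4, where Dcn held 47.4%. Adapted CIZ1 null E13.15 and E14.2 resembled each other, with Bgn at 61.6% and 62.9% and Dcn at 28.3% and 29.7%. In adapted CIZ1 null E13.17 it was 40.7%, below Ogn at 47.6%. The summed FPKM of the 9 genes was between 1457 and 1991 in the 6 primary populations and between 708 and 3347 in the 6 adapted lines. Because these are bulk samples, fewer cells of a type and less RNA per cell cannot be told apart.

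**Figure D1:**
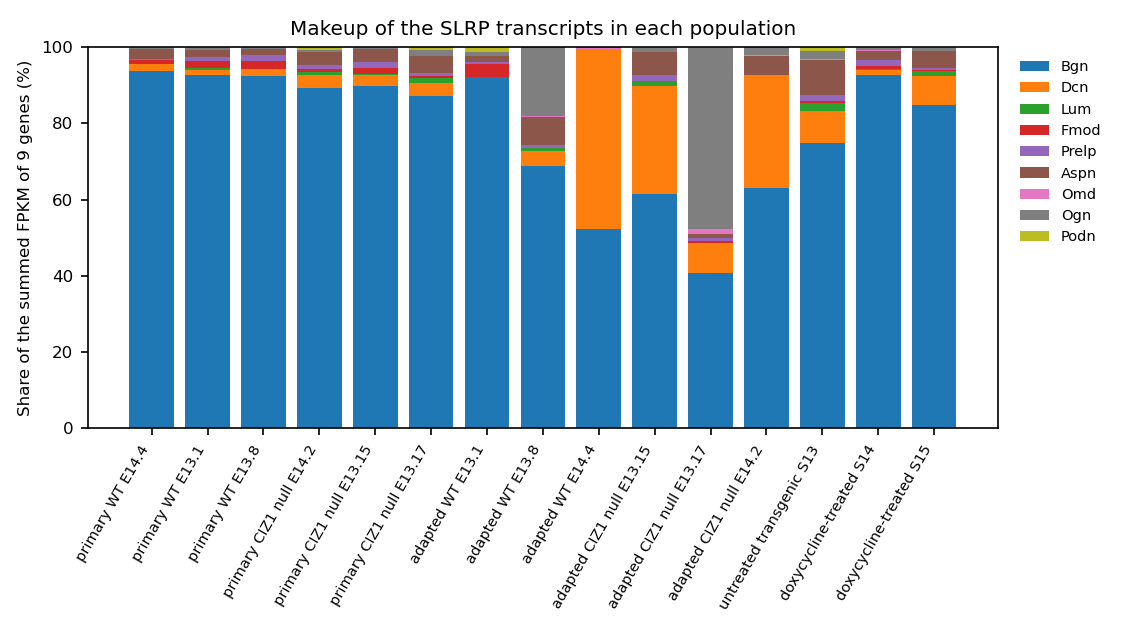
Stacked bars give the share of each gene, in percent, of the summed FPKM of the 9 SLRP genes in each of the 15 populations. Bgn fills 87.2 to 93.7% of the bar in the 6 primary populations of the main groups, whereas Dcn takes 47.4% in adapted WT E14.4 and Ogn 47.6% in adapted CIZ1 null E13.17.

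Of the genes in the class with chondroitin or dermatan sulfate chains, Bgn had the narrowest range. Its level went from 1539 to 1515 in WT E13.1, from 1641 to 807 in E13.8 and from 1654 to 996 in E14.4. In the CIZ1 null embryos its level went from 1529.9 to 1739 in E13.15, from 1271 to 288 in E13.17 and from 1779 to 2107 in E14.2. The 3 adapted WT lines thus lay below all primary WT populations in this unit, while in CIZ1 null cells only E13.17 was lower. In the second Bgn unit adapted WT E13.1, at 893, lay above primary WT E13.1 (837) and E13.8 (823). The 100 bases before the start of Bgn (RefSeq, GRCm38.p6, chrX:73483501-73483600, plus strand) are shown as the promoter of the gene that dominates the family, with capitals on the letters GGGCGG or their complement.
Bgn: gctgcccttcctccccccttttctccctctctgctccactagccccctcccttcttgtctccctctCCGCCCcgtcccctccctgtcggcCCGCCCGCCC
These GC-box letters begin 34, 10 and 6 bases before the start, and the last 2 matches overlap. They occur on either strand in the 250 bases before the start in 32.7% of 32851 mouse promoters. A match in these letters is a description of the sequence and not evidence of binding.

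Dcn had the widest spread of the 9 genes among adapted WT lines. In WT cells it went from 24.1 to 0.984 FPKM in E13.1, from 34.0 to 46.5 in E13.8 and from 31.1 to 905 in E14.4, so that 3 lines from populations of nearly equal level were 919-fold apart. The CIZ1 null embryos gave Dcn values that went from 51.1 to 800.0 in E13.15, from 47.7 to 56.8 in E13.17 and from 68.5 to 993 in E14.2. It was therefore higher after adaptation in 5 of 6 embryos, by 1.19 to 29.1 times, and 24.5 times lower in the remaining one. Aspn, which binds collagen and competes with decorin for it, behaved otherwise. It went from 28.2 to 27.3 in WT E13.1, from 25.7 to 84.4 in E13.8 and from 46.5 to 0.218 in E14.4. Among CIZ1 null embryos Aspn went from 56.5 to 174 in E13.15, from 67.3 to 6.53 in E13.17 and from 71.5 to 168 in E14.2. The 2 genes parted in adapted WT E14.4, where Dcn was 29.1 times higher and Aspn 214 times lower than in the primary population of that embryo.

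Of the class related to keratan sulfate, Fmod and Prelp were each lower after adaptation in 5 of 6 embryos and Lum in 4. The remaining member, Omd, described below, was higher in all of them. Fmod, which guides the assembly of collagen fibrils in tendon, was at 19.2 FPKM in primary CIZ1 null E14.2, 25.9 in E13.15 and 10.2 in E13.17, and the lines derived from them had 0.0996, 1.38 and 2.15 FPKM. In WT cells it went from 36.5 to 1.35 in E13.8 and from 16.5 to 0.0910 in E14.4, but from 32.2 to 54.8 in E13.1. The exception, adapted WT E13.1, was also the line in which Dcn was lowest. The 100 bases before the start of Fmod are given because it was the SLRP gene that passed the test below (RefSeq, GRCm38.p6, chr1:134037154-134037253, plus strand). They hold none of the motifs searched, so nothing is in capitals.
Fmod: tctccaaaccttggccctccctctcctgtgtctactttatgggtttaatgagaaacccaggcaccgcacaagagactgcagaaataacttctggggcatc
Lum, a binder of collagen best known from the cornea, was at 2.63 to 4.92 in primary WT and 5.09 to 19.2 in primary CIZ1 null cells. It was listed at 0 in adapted WT E13.1 and E14.4 and adapted CIZ1 null E13.17, but was at 8.66 in adapted WT E13.8, at 34.7 in adapted CIZ1 null E13.15 and at 2.26 in adapted CIZ1 null E14.2. A second Lum unit was at 0.340, 0.214 and 0.0992 in the 3 lines listed at 0, so the transcript was low there but not shown to be absent.

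Prelp, which anchors basement membranes to collagen, went from 18.3 to 7.17 in WT E13.1, from 26.8 to 9.17 in E13.8 and from 3.33 to 0.696 in E14.4. It was lower by 2.55 to 4.79 times in each of the 3 WT embryos although the primary populations themselves were 8.05-fold apart. In CIZ1 null cells Prelp went from 26.3 to 40.4 in E13.15, from 8.41 to 6.53 in E13.17 and from 16.3 to 1.44 in E14.2. Podn, which has been linked to the growth of smooth muscle cells, was at 4.98 to 5.89 in primary WT and 6.22 to 14.9 in primary CIZ1 null cells. It was lower in 4 of the 6 adapted lines, at 0.633 to 2.61, higher in adapted WT E13.1, at 20.5, and at 7.40 against 6.22 in CIZ1 null E13.15.

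Osteoglycin (Ogn) and osteomodulin (Omd), both first described in bone, were higher in the adapted line in 6 of 6 embryos. Ogn went from 8.76 to 17.3 FPKM in WT E13.1, from 5.54 to 213 in E13.8 and from 5.62 to 6.11 in E14.4. Among CIZ1 null embryos Ogn went from 3.67 to 26.3 in E13.15, from 22.4 to 337 in E13.17 and from 9.21 to 69.8 in E14.2. Omd, which carries keratan sulfate and binds hydroxyapatite, went from 0.179 to 0.851, from 0.246 to 2.50 and from 0.232 to 0.298 in the same order of WT embryos. In CIZ1 null cells Omd went from 0.0482 to 0.789, from 0.281 to 9.74 and from 0.522 to 3.06. The smallest step was in WT E14.4 for both genes, and the largest in WT E13.8 and CIZ1 null E13.17 on the log2(FPKM + 1) scale. Those 2 lines were also the ones nearly without Thy1, which was seen after the values were known and has no test.

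The promoters of Ogn and Omd are shown because these neighbours on chromosome 13 moved together. Each run is the 100 bases before the RefSeq start in GRCm38.p6, on the plus strand, at chr13:49607915-49608014 for Ogn and chr13:49582362-49582461 for Omd. Capitals mark the E-box letters CANNTG, which 66.2% of mouse promoters hold within 250 bases.
Ogn: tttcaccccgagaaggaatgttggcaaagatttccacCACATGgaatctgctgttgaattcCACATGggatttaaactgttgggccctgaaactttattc
Omd: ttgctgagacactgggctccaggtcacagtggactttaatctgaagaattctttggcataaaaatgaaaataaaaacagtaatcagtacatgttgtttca
The matches in the run from Ogn begin 63 and 39 bases before its start. None of the 6 motifs searched (the TATA box TATAAA, the AP-1 site TGANTCA, the GC box GGGCGG, the box CCAAT, the E-box CANNTG and the SMAD box GTCTAGAC, each on both strands) was found in the 250 bases before Omd, which says only that these letters are not in this window. Both stretches of 250 bases were poorer in G and C than the median promoter, at 42.0% for Ogn and 38.4% for Omd against 52.4%, and that of Aspn, which lies in the same cluster, held 30.0%. By contrast Bgn was at 64.4%.

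**Figure D2:**
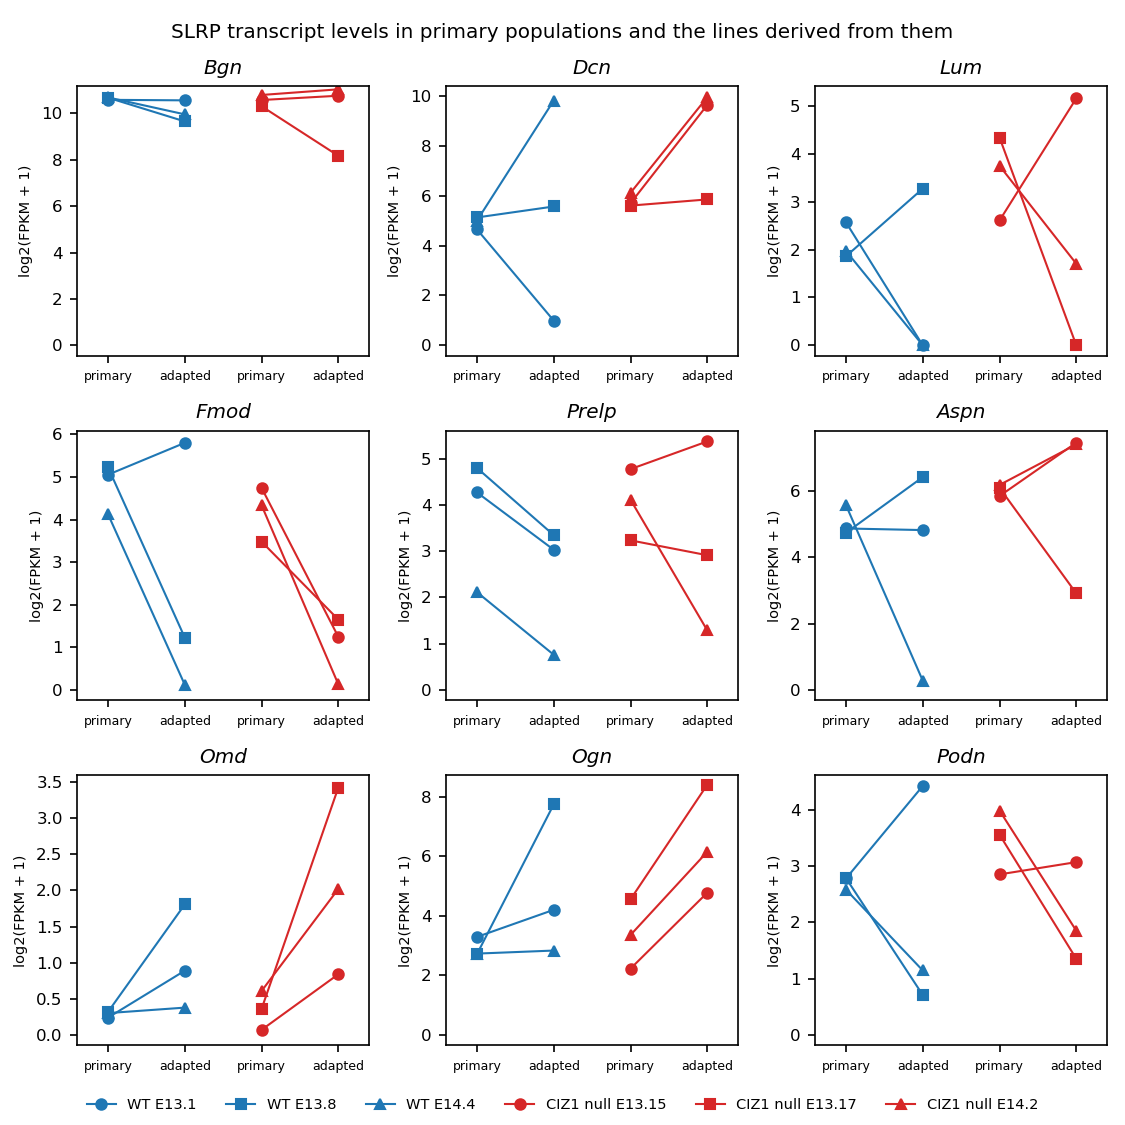
Each panel shows 1 SLRP gene, with log2(FPKM + 1) on the vertical axis, and each line joins a primary population to the adapted line from the same embryo (blue, WT; red, CIZ1 null; marker, embryo). All 6 lines slope upward for Ogn and Omd, while those of Dcn start close together and end between 0.984 and 993 FPKM.

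To ask which genes differed between primary and adapted cells beyond the spread of 3 populations, limma was run on log2(FPKM + 1) with Benjamini-Hochberg adjustment of p across every unit that entered. In CIZ1 null cells Fmod fell by 3.18 on the log2 scale (SE 0.484, limma adjusted p = 0.0285). The other 2 Fmod units fell by 3.06 (limma adjusted p = 0.0265) and 2.66 (limma adjusted p = 0.0400), and the 3 adapted lines lay below all 3 primary populations. These were the only 3 of 20 SLRP units called, against 4.86% of all 20044 units tested (1.4% higher and 3.47% lower), and they are readings of a single gene. When each line was paired with its own primary population by a term for the embryo, Fmod missed the threshold (limma adjusted p = 0.0899), and 10 units of the whole table passed. Fmod also missed it without primary E14.2, E13.15 or E13.17 (limma adjusted p from 0.0882 to 0.133) and without adapted E14.2 (limma adjusted p = 0.0601).

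The remaining 8 genes did not pass in CIZ1 null cells. Ogn was higher by 3.07 (SE 0.992, limma adjusted p = 0.109) and Omd by 1.75 (SE 0.629, limma adjusted p = 0.131), with no overlap between primary and adapted values in either of these units. The second Ogn unit did overlap, with primary E13.17 at 12.6 and adapted E13.15 at 12.1 FPKM. Dcn was higher by 2.68 (SE 1.05, limma adjusted p = 0.154), and passed without adapted E13.17 (3.99, limma adjusted p = 0.00622). Without that line Aspn passed too, with its sign turned to 1.39 (limma adjusted p = 0.0326). Ogn (3.90), Omd (2.38) and Podn (-1.87) passed without adapted E13.15 (limma adjusted p = 0.0446, 0.0317 and 0.0347). Podn was lower by 1.38 (SE 0.500, limma adjusted p = 0.134). For Lum, Prelp, Bgn and Aspn the difference lay between -1.28 and -0.12 with an SE from 0.738 to 1.26. At an unadjusted p under 0.05, 10 of 20 SLRP units differed, against 29.3% of all units, and 6 of 20 had no overlap between groups, against 37.1%.

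In WT cells none of 19 SLRP units passed (limma adjusted p from 0.154 to 0.927), against 9.55% of 19919 units (2.87% higher and 6.68% lower). A mean FPKM of at least 1 was required, and Omd was below it. Bgn was lower by 0.59 (SE 0.240, limma adjusted p = 0.154) and was the single unit with an unadjusted p under 0.05, against 30.6% of all units, and the single one with no overlap, against 38.7%. The differences of Fmod (-2.42, SE 1.39), Ogn (2.01, SE 1.16) and Dcn (0.53, SE 2.00) came with errors that left them short of the threshold. Without adapted WT E13.1, 7 SLRP units passed, among them Fmod (-4.12, limma adjusted p = 0.0186), Podn (-1.79, limma adjusted p = 0.0192) and Bgn (-0.84, limma adjusted p = 0.0335). Without adapted WT E13.8, 3 units passed, among them Lum (-2.13, limma adjusted p = 0.0284). When embryos were paired, Prelp passed (-1.35, limma adjusted p = 0.0471). Whether adaptation acted differently in the 2 genotypes was tested as an interaction over the 12 populations, and none of 20 SLRP units passed (limma adjusted p from 0.996 to 0.999), nor did any of 20046 units, a share of 0%. None of the 20 had an unadjusted p under 0.05, against 4.63% of all units.

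**Figure D3:**
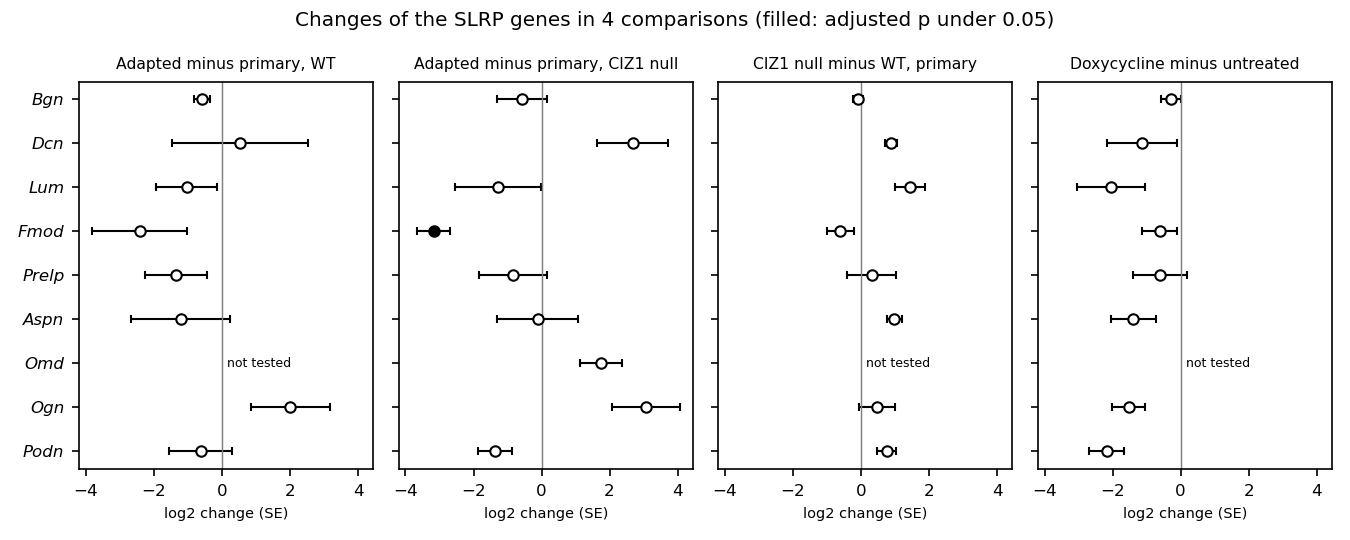
Points give the log2 change of each SLRP gene with its standard error in 4 comparisons, as fitted by limma, and filled points passed an adjusted p of 0.05. Fmod in CIZ1 null cells (-3.18) is the single filled point, and the error bars of Dcn in WT cells (SE 2.00) are wider than its change.

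Adapted lines differed from each other far more than primary populations did. Over the 9 genes, the median SD of log2(FPKM + 1) was 0.33 in primary WT and 0.57 in primary CIZ1 null cells, but 2.03 in adapted WT and 1.83 in adapted CIZ1 null lines. Over all units the median SD was 0.19 and 0.22 in the primary and 0.37 and 0.36 in the adapted groups. Of the 9 genes, 6 were among the 5% of units with the largest SD in adapted WT lines and 6 in adapted CIZ1 null lines, against 1 and 3 in the primary groups. The adapted SD exceeded the primary one for 8 of 9 genes in WT (Prelp was the exception) and 9 of 9 in CIZ1 null cells, as it did for 77.7% and 72.3% of all units. The SD of Dcn in adapted WT lines, 4.42, was reached by 0.0605% of units. Aspn (3.18), Fmod (3.01) and Ogn (2.54) followed in WT. In adapted CIZ1 null lines Lum (2.63), Aspn (2.61) and Dcn (2.29) had the largest SD and Fmod (0.79) the smallest. The scale compresses low values such as those of Fmod, whose highest FPKM there was 21.6 times its lowest. That ratio was 4.77 for Podn, 7.32 for Bgn, 12.4 for Omd, 12.8 for Ogn and 17.5 for Dcn. It was 26.7 for Aspn and 28.0 for Prelp, and Lum had none because of a value of 0. These SDs rest on 3 populations each and were not tested.

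**Figure D4:**
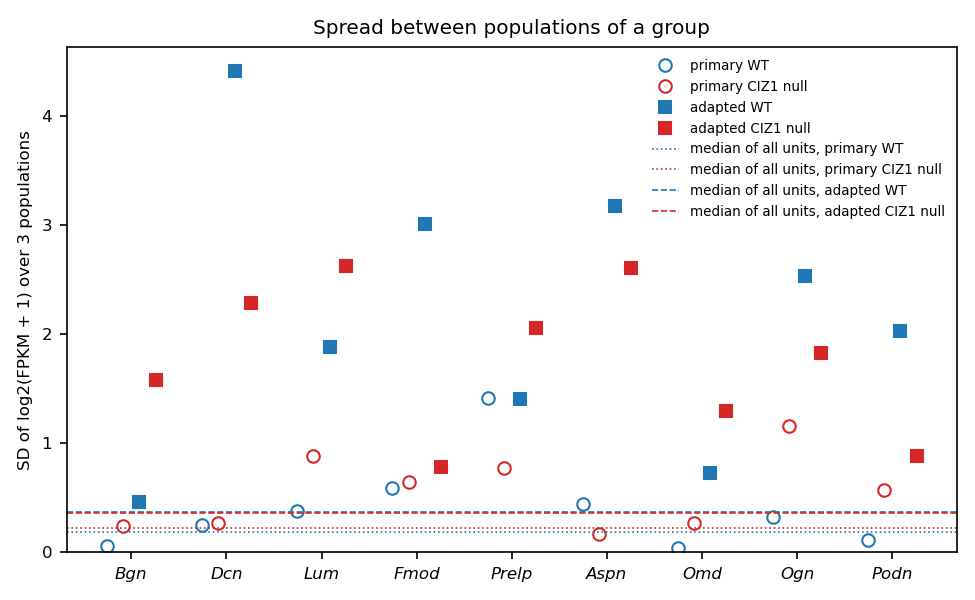
Points show the SD of log2(FPKM + 1) over the 3 populations of a group for each SLRP gene (open circles, primary; filled squares, adapted; blue, WT; red, CIZ1 null), and horizontal lines give the median over all units. The adapted squares lie up to 4.42 for Dcn, whereas the medians of all units are between 0.19 and 0.37.

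Loss of CIZ1 was compared in primary cells, where the groups were tighter. None of 19 SLRP units passed (limma adjusted p from 0.582 to 0.997), and 0.00511% of 19566 units did, namely a single unit, Ciz1. Aspn, Dcn, Lum and Podn nevertheless had every CIZ1 null population above every WT one. The second Podn unit was the exception among their units, with CIZ1 null E13.17 at 6.14 and WT E13.1 at 6.17 FPKM. Aspn was at 71.5, 56.5 and 67.3 against 46.5, 28.2 and 25.7 FPKM (0.98 higher on the log2 scale, SE 0.232, limma adjusted p = 0.639). Dcn, given above, was higher by 0.88 (SE 0.189, limma adjusted p = 0.624). Lum was at 12.4, 5.09 and 19.2 against 2.92, 4.92 and 2.63 (1.43 higher, SE 0.436, limma adjusted p = 0.70), and Podn at 14.9, 6.22 and 10.8 against 4.98, 5.87 and 5.89 (0.75 higher, SE 0.280, limma adjusted p = 0.776). Counting every unit of these genes, 9 of 19 SLRP units had no overlap, against 11.9% of all units, and 10 of 19 had an unadjusted p under 0.05, against 6.26%. Several of these units are readings of the same genes, so they are not separate observations. Bgn (-0.09, SE 0.139), Fmod (-0.61, SE 0.397), Ogn (0.47, SE 0.542) and Prelp (0.31, SE 0.717) overlapped. The summed level of 5 haematopoietic markers ranged from 9.44 to 96.5 in the primary CIZ1 null and from 17.4 to 33.4 in the primary WT populations. The epithelial sum, mostly Krt19, was 26.0 to 44.9 in primary CIZ1 null against 49.4 to 65.1 in primary WT cells. The fibroblast sum was 13131 to 13832 against 13999 to 14554, and neither sum overlapped. Within the fibroblast list, however, Col1a2 (2026 to 2069 against 1808 to 2017), Col3a1 (621 to 1028 against 419 to 466) and Pdgfra (28.3 to 31.9 against 8.96 to 21.3) were higher in CIZ1 null cells. The other fibroblast markers overlapped. The part of these marker levels in the SLRP differences was not tested.

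In adapted cells the 2 genotypes overlapped for all 20 SLRP units tested, while 8.28% of all units did not overlap. None passed (limma adjusted p of 0.998 or more, against 0.00501% of 19976 units called) and none had an unadjusted p under 0.05, against 4.02% of all units. The SE of these differences reached 2.25 for Dcn on the log2 scale, so a difference of several-fold would not have been detectable here.

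Doxycycline, which induces GFP-CIZ1 from the transgene, was compared in 2 treated and 2 untreated samples. Ciz1 was at 296 and 191 FPKM in the treated samples, far above the 18.7 to 25.0 of WT cells. By the study's methods these are the populations E13.17 and E14.19, each with and without the drug, but no source used here says which of them S14 and S15 came from, so the samples were fitted unpaired and both possible pairings were run as alternatives. None of 19 SLRP units passed (limma adjusted p = 1 for all), while 0.0101% of 19768 units did. All 19 were lower on average in the treated cells, 6 of them at an unadjusted p under 0.05, against 1.76% of all units, and 10 with no overlap, against 19.7%. Podn was at 10.8 (E13.17) and 30.0 (S13) without and at 2.57 and 4.04 with the drug (-2.17, SE 0.518, limma adjusted p = 1). Ogn was at 22.4 and 55.7 against 10.2 and 13.2 (-1.53, SE 0.475, limma adjusted p = 1), and Aspn at 67.3 and 248 against 35.9 and 66.2 (-1.39, SE 0.659, limma adjusted p = 1). Paired either way, none of the SLRP units passed. With S15 taken as E13.17 the limma adjusted p of Podn was 0.208, and with S14 it was 0.9999. The fibroblast marker sum was 11843 and 10354 in the treated against 13160 and 13388 in the untreated samples, without overlap. Of its markers, Col1a1, Col1a2, Col3a1 and Fn1 were lower in both treated samples. S100a4 was higher (2922 and 2872 against 1588 and 2167), and the others overlapped. The tendon marker sum was 45.6 and 41.1 against 51.1 and 86.1, without overlap, but each tendon marker alone overlapped. The part of these markers in the lower SLRP levels was not tested. In S13, 8 of the 9 genes, all but Fmod, were higher than in any other primary population, with Aspn at 248, Lum at 56.4, Podn at 30.0 and Dcn at 222 FPKM. S13 also had the lowest relative depth of all 15 libraries, 0.483, and the part of depth in its levels was not tested. Without S13 the signs of Bgn and Prelp turned to 0.04 and 0.46, without S14 that of Dcn to 0.15, and without S15 those of Fmod and Prelp to 0.08 and 0.09.

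The genes of a cluster did not all move together across the 15 populations. The correlations that follow are of log2(FPKM + 1) and are given as a description, since the 15 libraries include related cells. Ogn and Omd were closest (Pearson 0.90, Spearman 0.89), but Aspn, in the same cluster, followed neither over all 15 (0.18 with Ogn and -0.03 with Omd). In the 9 primary samples alone Aspn was at 0.78 with Ogn and 0.57 with Omd, against 0.32 and 0.095 in the 6 adapted lines. Dcn and Lum, neighbours on chromosome 10, were at 0.91 over the 9 primary samples (S13 to S15 included) and at 0.37 over the 6 adapted lines. Dcn and Aspn were likewise at 0.89 in primary and 0.03 in adapted cells. Dcn and Fmod ran against each other (-0.78 over 15), most of all in the adapted lines (-0.91 over 6). Lum and Aspn stayed close throughout (0.76 over 15).

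**Figure D5:**
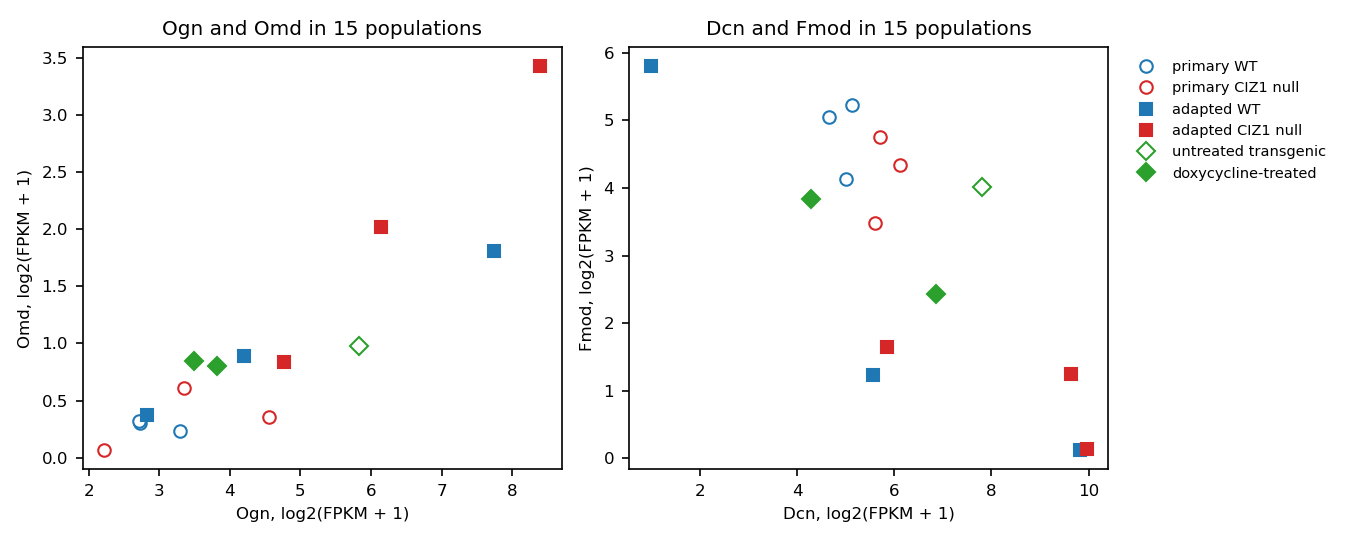
Each point is 1 of the 15 populations, with log2(FPKM + 1) of Ogn against Omd on the left and of Dcn against Fmod on the right (blue, WT; red, CIZ1 null; circles, primary; filled squares, adapted; green diamonds, S13 open and doxycycline-treated filled). Ogn and Omd rise together (Pearson 0.90), and the 2 populations with the highest Dcn have the lowest Fmod (Pearson -0.78 over all).

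Among 10792 other units that averaged 5 FPKM or more, those most like the 4 most abundant SLRPs over the 15 samples were named by Pearson correlation. For Bgn they were Fbln2 (0.92), a fibulin of the matrix, Postn (0.92), the matrix protein periostin, and Add1 (0.91), an adducin of the membrane skeleton. For Dcn they were Slc25a26 (0.97), a mitochondrial carrier, Lrig1 (0.91) and Tank (0.91). Aspn was most like Pdgfrb (0.89), a receptor for PDGF found on fibroblasts, Fkbp14 (0.88) and Erp44 (0.87), the last 2 being proteins of the endoplasmic reticulum. Ogn was most like Wls (0.93), which carries Wnt proteins to the surface, Spast (0.924) and Lifr (0.915).

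Genes that make, bind or cut SLRPs were read from lists chosen with earlier results of these data known. Calls in these lists are to be read against all units, of which 6.68% were lower and 2.87% higher in WT and 3.47% lower and 1.4% higher in CIZ1 null cells. Of 35 units tested for enzymes of the linker and of chondroitin and dermatan sulfate synthesis, 7 fell and 0 rose with adaptation in WT cells (median log2 change -0.58, against -0.05 over all units), and 3 fell and 1 rose of 36 in CIZ1 null cells (median -0.19, against -0.04). Chsy3, a chondroitin synthase, fell by 2.52 in WT (limma adjusted p = 0.00712), as did B4galt7, of the linker, by 1.26 (limma adjusted p = 0.0193). Chst12, a chondroitin sulfotransferase, fell by 2.02 in WT (limma adjusted p = 0.0440) and by 1.76 in CIZ1 null cells (limma adjusted p = 0.0478). The sulfotransferase Ust fell by 1.24 (limma adjusted p = 0.0314) and the epimerase Dse, which turns chondroitin into dermatan sulfate, rose by 0.99 in CIZ1 null cells (limma adjusted p = 0.0422). Of 7 units for keratan sulfate synthesis, 0 were called in WT and 1 in CIZ1 null cells, where the sulfotransferase Chst2 fell by 2.73 (limma adjusted p = 0.0282).

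The collagens that SLRPs bind had a median change of -1.02 in WT, with 0 of 15 units called (9.55% of all units), and of -1.15 in CIZ1 null cells, with 4 of 16 lower (3.47% of all units). Col1a1 fell there by 2.38 (limma adjusted p = 0.0262), Col5a1 by 2.59 (limma adjusted p = 0.0235) and Col1a2 by 1.16 (limma adjusted p = 0.0341). Of 22 units for growth factors and receptors, 2 were higher and 4 lower in WT, and 2 were higher and 2 lower in CIZ1 null cells. Tlr2, a receptor for free biglycan and decorin, was the one that rose in both, by 3.10 in WT (limma adjusted p = 0.00907) and 2.90 in CIZ1 null cells (limma adjusted p = 0.0209). Its mean level went from 0.544 ± 0.192 to 12.8 ± 5.19 FPKM and from 0.927 ± 0.160 to 14.2 ± 6.29 (SD, n = 3). Tgfb1 fell by 1.98 in WT (limma adjusted p = 0.0207) and Wisp1 fell by 2.23 (limma adjusted p = 0.0168). Tgfb3 fell by 2.50 in CIZ1 null cells (limma adjusted p = 0.0296).

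Among proteases that process SLRPs, 3 of 20 units were lower in WT (6.68% of all units), and in CIZ1 null cells 2 of 21 were higher and 1 lower (1.4% and 3.47% of all units). The procollagen proteinases Bmp1 and Tll1, which cleave the propeptide of biglycan, fell by 1.31 (limma adjusted p = 0.0320) and 1.98 (limma adjusted p = 0.0206) in WT. Mmp3, which cuts decorin, rose by 5.02 in CIZ1 null cells (limma adjusted p = 0.0295), and Adamts1 fell by 1.67 (limma adjusted p = 0.0348). Of the other proteoglycans of the matrix and cell surface, 10 units fell and 2 rose of 32 in WT (6.68% and 2.87% of all units), and 7 fell and 2 rose of 31 in CIZ1 null cells (3.47% and 1.4% of all units). Cspg4, the NG2 proteoglycan, had log2 changes of -2.54 in WT (limma adjusted p = 0.0441) and -3.14 in CIZ1 null cells (limma adjusted p = 0.0215). The syndecan Sdc3 fell in both, by limma log2 changes of -2.36 (adjusted p = 0.0404) and -1.92 (adjusted p = 0.0468), and so did the glypican Gpc4, by -2.05 (adjusted p = 0.0134) and -1.60 (adjusted p = 0.0454). Gpc1 fell by 2.00 in WT (limma adjusted p = 0.0132), and Hspg2, perlecan, fell by 1.92 in CIZ1 null cells (limma adjusted p = 0.0271). Betaglycan, Tgfbr3, rose by 2.41 in WT (limma adjusted p = 0.0207) and 2.09 in CIZ1 null cells (limma adjusted p = 0.0215). When embryos were paired, 17 of these called units stayed past the threshold and 11 did not in WT, and all 25 lost it in CIZ1 null cells. None of the units of the other SLRP family members was called in any comparison. Of these, Tsku (tsukushi), the most abundant, was at 21.2 to 28.3 FPKM in primary WT and 7.95 to 14.95 in adapted WT cells (-1.04, SE 0.255, limma adjusted p = 0.0530), and Optc (opticin) had a log2 change of -0.19 (SE 0.389, limma adjusted p = 0.77).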

How the data were processed

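The authors trimmed reads with cutadapt 1.8.3, aligned them to GRCm38 with HISAT2 2.0.5, assembled and merged transcripts with Cufflinks, and deposited FPKM normalised by Cuffnorm, per transcription unit and sample. A deposited table of the authors' own comparisons (mean FPKM, fold changes, p-values) was not used. From the FPKM, log2(FPKM + 1) was tested with limma 3.58.1 in R 4.3.3 (lmFit, eBayes with trend), for units whose FPKM averaged 1 or more over the samples compared, with Benjamini-Hochberg adjustment over all units across the genome and a threshold of 0.05. Changes are on the log2(FPKM + 1) scale, which understates those of low genes. Groups came from the labels, and the third primary CIZ1 null population is the untreated transgenic E13.17. Embryos were read from the study's tables, and same-embryo samples are paired by origin (correlation of deviations from the group mean 0.21, 0.15 and -0.01 in WT and -0.02, 0.11 and 0.09 in CIZ1 null cells). Alternatives were a pseudocount of 0.1, no filter, a filter at 5 FPKM, quantile normalization, array weights, all groups in a single fit, other sets of primary CIZ1 null populations, the embryo as a block, each sample left out and, added after seeing the data, units of a gene summed and both pairings of the doxycycline samples. The comparison was tested on simulated data. Members and lists were chosen with earlier results of these data known. All SLRP units are named with values; list genes are those called in an adaptation comparison, at most 5 per list by size of change; likeness is Pearson correlation over 15 samples. Python 3.11.15 was used for figures and sequences.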

Additional observations from a re-analysis of the deposited data

How the results depend on the processing

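Fmod was lower in adapted CIZ1 null cells under every alternative, but its call was not stable. Of the SLRP units, 3 were called there, 1 with a pseudocount of 0.1, and 0 without a filter, in a joint fit of the 4 groups, with only the 2 primary CIZ1 null populations without the transgene, or with the embryo as a block, and from 0 to 9 (without adapted E13.15) when a sample was left out. In WT cells 0 were called, 1 with the embryo as a block (Prelp), and from 0 to 7 (without adapted E13.1) when a sample was left out. The block lowered the calls over all units from 1902 to 499 in WT and from 975 to 10 in CIZ1 null cells, leaving out a sample gave 62 to 2972 and 25 to 2999, no filter 988 and 322, and in CIZ1 null cells array weights gave 1936, the joint fit 2969, all 4 untreated null populations 449 and only 2 of them 30. The other comparisons stayed at 0 SLRP units under every alternative, and pairing embryos changed no other SLRP call. For doxycycline, the block for population (added after seeing the data) gave 0 SLRP units under either pairing of the treated samples, and 0 or 25 of all units against 2 unpaired. With the units of a gene summed, Fmod remained the 1 gene called.

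Signs turned in 21 of 466 alternative values of single genes, in each case for a value that had not passed in the test as reported. Aspn in CIZ1 null adaptation was 0.042 with quantile normalization and 0.26 with array weights. For loss of CIZ1 in primary cells, Ogn was -0.046 with array weights and -0.12 with only 2 null populations, and Bgn 0.0051 with all 4 and 0.0349 with only 2. Leaving out a sample gave, in WT adaptation, -2.51 to 0.56 for Aspn, -1.65 to 2.77 for Dcn and -1.79 to 0.069 for Podn. In CIZ1 null adaptation it gave -0.88 to 1.39 for Aspn, -1.09 to 0.34 for Bgn and -1.94 to 0.10 for Prelp. In primary cells it gave -0.21 to 0.0349 for Bgn, -0.12 to 1.04 for Ogn and -0.49 to 0.85 for Prelp. With doxycycline it gave -0.60 to 0.036 for Bgn, -2.42 to 0.15 for Dcn, -1.32 to 0.084 for Fmod and -1.66 to 0.46 for Prelp. The cause was not tested. Depth of the single libraries is unknown in reads, so precision at low FPKM (Omd, Lum in 3 lines) cannot be stated.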

Other observations

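Among neighbours of the SLRP genes, Kera (keratocan, a corneal SLRP beside Lum on chromosome 10) was at 3.55 to 7.23 FPKM in its 3 units in adapted CIZ1 null E13.15, the adapted line with the highest Lum (34.7), and at 0.491 or less in the other 14 populations. Ecm2, beside Aspn, was at 1.08 FPKM in adapted WT E13.1 and 0.578 in adapted WT E13.8, and at 0.336 or less elsewhere. Optc, beside Prelp, was at 0.761 to 7.18 FPKM and was listed at 0 in adapted CIZ1 null E14.2 alone. These values were noticed after the data were seen and have no test.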
